A study of Mus musculus with 6 samples.

Results

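Guidance ligands and receptors outside the class 3 semaphorins were measured in epidermal keratinocytes of the back skin. The mice were females of 9.5 weeks on a C57BL6/CBA background. The genes were taken by symbol: class 4 to 7 semaphorins, plexins, neuropilins, ephrins, Eph receptors, Slits, Robos, netrins, the Unc5 group, Dcc and Neo1. Of 11280 genes read on the arrays, 49 met that rule, from 65 protein-coding genes of these names in the gene table used. They comprise 11 semaphorins, 6 plexins, 1 neuropilin, 6 ephrins, 12 Eph receptors, 1 Slit, 3 Robos, 3 netrins and 6 genes of the Unc5, Dcc and Neo1 group. The last group includes Unc50, a Golgi protein, and Unc5cl, an intracellular relative of the Unc5 receptors, which share the prefix without being netrin receptors. The other 16 genes, among them the B-class plexins, Nrp2 and Slit2, were not analysed here.

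K14ΔNLef1 transgenic samples (3) were compared with wild type samples (3) of the same background, sex and age, which carry no transgene. The transgene encodes Lef1, a DNA-binding partner of β-catenin in Wnt signalling, without its N-terminus, and the keratin 14 promoter drives it in the basal layer of the epidermis. The keratinocytes were unfractionated, that is not split into subsets, although the labelled extraction step follows cell sorting. Each sample was read on 1 exon array, and the labels do not say whether a sample pooled several mice. They call the samples biological replicates.

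Guidance molecules were named for steering axons and are used in many epithelia. Eph receptors are receptor tyrosine kinases bound by ephrins on the neighbouring cell: A-class receptors mainly bind lipid-anchored A-class ephrins, and B-class receptors mainly bind transmembrane B-class ephrins. In epidermis this contact signalling is known to act in cell adhesion and differentiation. Semaphorins bind plexins, which act on small GTPases and the cytoskeleton, Slits bind Robos, and netrins bind Dcc, neogenin and the Unc5 receptors.

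A gene value is the mean log2 intensity of a gene's probe sets, which are the separate stretches of a transcript that the array reads, 2 to 38 per guidance gene with a median of 15. Differences are K14ΔNLef1 minus wild type on this log2 scale. Probe sets respond unequally, so values are compared between arrays and not between genes. Lef1 itself had gene values of 11.11, 11.13 and 11.24 in K14ΔNLef1 samples, against 5.81, 7.02 and 6.26 in wild type samples, in keeping with the labels. Keratinocyte identity was checked on Krt14, a basal keratin, whose gene value lay between 12.81 and 13.06 in K14ΔNLef1 samples and between 12.89 and 12.99 in wild type samples. Krt14 does not stand for all basal markers: of the 9 measured, 8 had a difference below 0, and Krt14 was the other. The array of K14ΔNLef1 replicate 1 stood apart, with a median intensity of 154.2, against 190.0 to 203.2 on the other 5 arrays. The number of arrays limits the precision.

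Among the 49 genes the receptor gene Epha2 fell and the plexin gene Plxna4 rose, and the other 47 did not pass the test (limma, adjusted p at or under 0.05 over all 11280 genes). Over all genes 1.16% were called, 0.328% higher and 0.833% lower, and 2 of 49 guidance genes is 4.08%. Fits with other choices called from 0 to 9 of the 49, so the count itself is not firm, and without K14ΔNLef1 replicate 1 the calls were again Epha2 and Plxna4. At an unadjusted p at or under 0.05 there were 9 guidance genes, 2 higher (Plxna4 and Sema6a) and 7 lower (Epha2, Ephb6, Efna1, Sema5a, Epha4, Epha1 and Ephb3). That is 18.4% of them, where 11.8% of all genes reached it, 4.21% higher and 7.58% lower. In 14 genes the genotypes did not overlap, 5 higher and 9 lower, or 28.6% of the guidance genes against 18.7% of all genes (6.91% higher and 11.8% lower). The median difference was 0.035 over the guidance genes and -0.054 over all genes. By family the median was -0.13 in Eph receptors (7 of 12 below 0), -0.23 in ephrins (4 of 6 below 0), 0.19 in plexins (4 of 6 above 0) and 0.03 in semaphorins (7 of 11 above 0), and no family was tested as a set. The median difference of the guidance genes was 0.144 once all arrays were set to 1 median and -0.039 without K14ΔNLef1 replicate 1, so it has no settled sign.

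**Figure D1:**
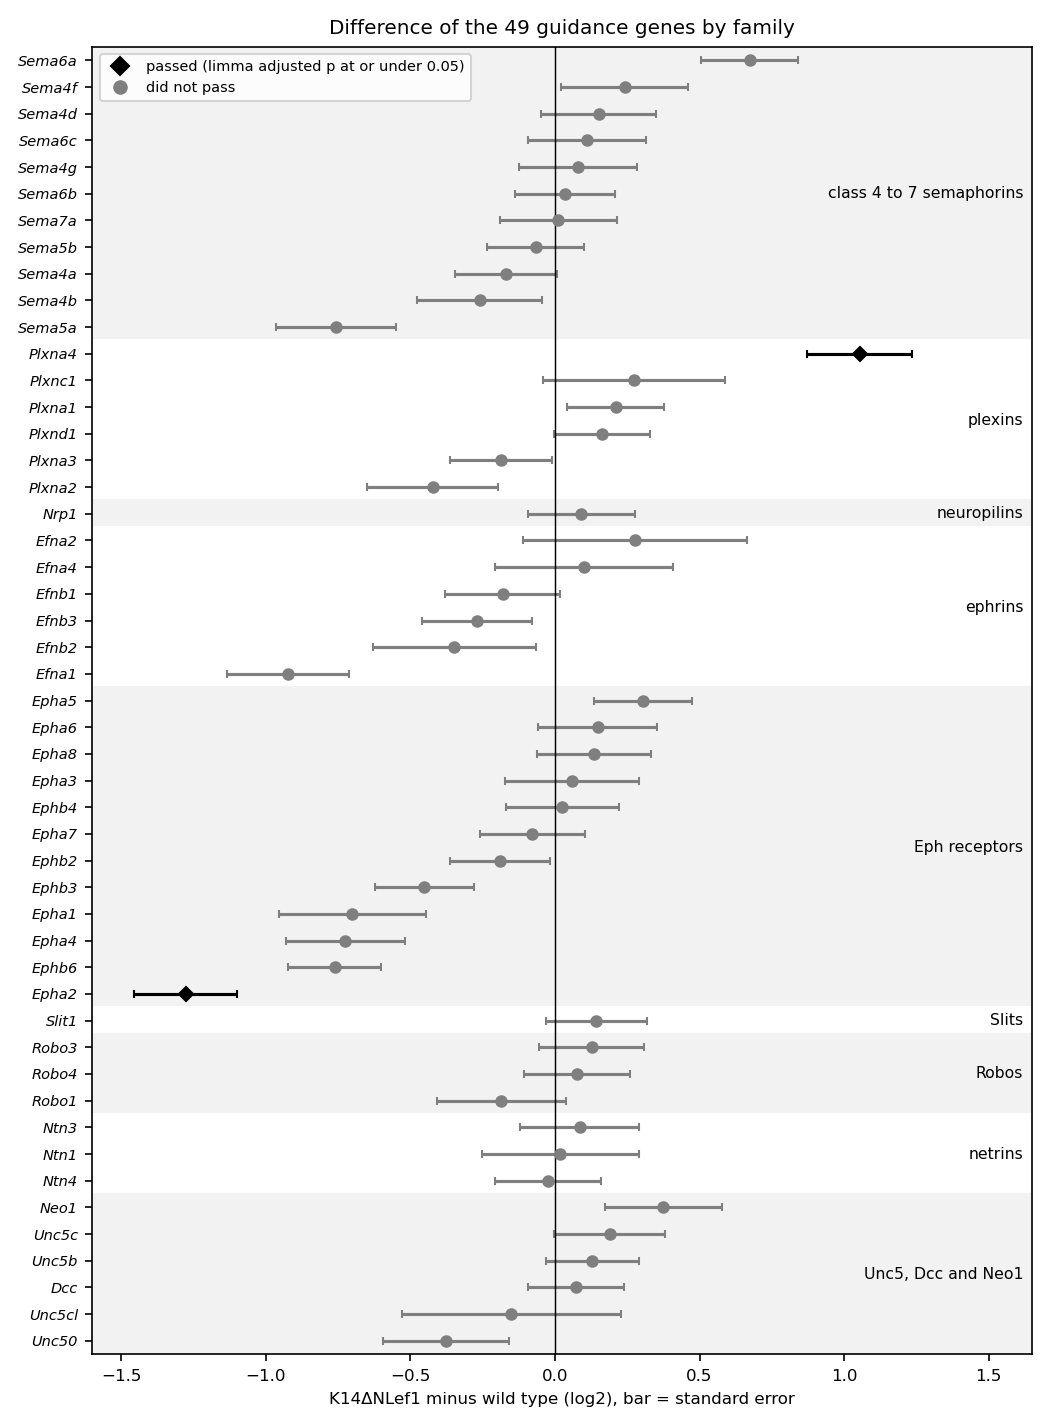
Difference between K14ΔNLef1 and wild type for each of the 49 guidance genes on the log2 scale, grouped by family, with the standard error of the limma fit (3 arrays per genotype). Diamonds mark the 2 genes that passed, Epha2 at -1.28 and Plxna4 at 1.05. The last group holds Unc50 and Unc5cl by their prefix only.

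Of 12 Eph receptor genes, Epha2 fell and 11 did not pass. Epha2, a receptor kinase abundant in epithelia, had gene values of 6.70, 7.02 and 7.09 in K14ΔNLef1 samples, against 8.24, 8.19 and 8.21 in wild type samples. The wild type samples lay within a narrow band (SD 0.02, n = 3), and every transgenic sample lay more than 1 unit below it. The means were 6.94 ± 0.21 and 8.21 ± 0.02 (SD, n = 3 each), a difference of -1.28 (SE 0.18), or 2.42-fold lower in K14ΔNLef1 (limma adjusted p of 0.0182).

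The size of the Epha2 difference hardly depended on any 1 array, at -1.35 to -1.16 with each left out in turn, but the call did. It passed without K14ΔNLef1 replicate 1 (adjusted p of 0.0124) and replicate 3 (0.0409) and did not pass without wild type replicate 1 (0.0981), 2 (0.0998) or 3 (0.111) or K14ΔNLef1 replicate 2 (0.0567). With the median of its probe sets in place of the mean the difference was -0.90 (adjusted p of 0.144). In bulk samples like these, fewer cells of a type and less RNA per cell cannot be told apart. Suprabasal keratinocytes are the differentiating layers, and the mean gene value of the 7 of their markers measured was 8.04, 9.21 and 9.07 in K14ΔNLef1 samples, against 9.83, 9.65 and 9.59 in wild type samples. Of these 7, Krt77 and Calm5 fell (-1.97 and -2.70) and 5 did not pass, of which 4 were below 0 and Lor was at 0.45, and the median difference of the 7 was -0.60. The 9 basal markers averaged 10.44, 10.73 and 10.89 in K14ΔNLef1 samples, against 10.90, 10.98 and 10.94 in wild type samples, and none passed. Of these 9, 8 were below 0 and Krt14 was at 0.03, and their median difference was -0.32. The part of these markers in the Epha2 result was not tested.

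Other Eph receptors pointed the same way without passing. Ephb6, a receptor whose kinase domain is inactive, had gene values of 7.60, 7.69 and 7.74 in K14ΔNLef1 samples, against 8.46, 8.35 and 8.49 in wild type samples. Its spread was small in both genotypes (SD 0.07 each, n = 3), and its difference of -0.76 (SE 0.16) had a limma adjusted p of 0.0803. Without K14ΔNLef1 replicate 1 and with the other arrays quantile normalized, Ephb6 did pass (-0.72, limma adjusted p of 0.0437), while with the median of its probe sets the difference was -0.49 (limma adjusted p of 0.481). Epha4, which binds ephrins of both classes, had gene values of 7.55, 8.01 and 8.08 in K14ΔNLef1 samples, against 8.50, 8.52 and 8.80 in wild type samples. Its difference was -0.72 (SE 0.21, limma adjusted p of 0.200).

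Epha1, the founding member of the receptor family, had gene values of 6.98, 7.69 and 7.56 in K14ΔNLef1 samples, against 8.33, 7.75 and 8.26 in wild type samples. Its genotypes were separated by a narrow margin between K14ΔNLef1 replicate 2 and wild type replicate 2, and its difference of -0.70 (SE 0.25) had a limma adjusted p of 0.323. Ephb3, a receptor of B-class ephrins, had gene values of 7.95, 7.96 and 7.89 in K14ΔNLef1 samples, against 8.26, 8.58 and 8.32 in wild type samples, with a difference of -0.45 (SE 0.17, limma adjusted p of 0.350), or -0.15 with the median of its probe sets (limma adjusted p of 0.863). The transgenic samples all lay below the wild type samples in Epha2 and these 4 receptor genes. All 5 had an unadjusted limma p at or under 0.05 on the same values, so the separation is no separate evidence. The other 7 receptors ranged from -0.19 for Ephb2 to 0.31 for Epha5, a receptor best known from neurons, which was the 1 Eph gene with all transgenic samples higher.

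The promoters of 3 of these genes are shown because they are the Eph receptor that passed, its best known A-class ligand, and the Eph receptor next in order of p. Plxna4 had no such stretch in the table used. Each is the stretch of 250 bases before a transcript start in RefSeq (GRCm38.p6), 5′ to 3′ on the gene's strand, with capitals marking a match to the core Lef/Tcf motif. The motif was searched on both strands in 4 spellings, which are CTTTGAA, then CTTTGAT, then CTTTGTA, then CTTTGTT, and these cannot overlap one another on a strand.
Epha2 (chr4:141300971-141301220, plus strand): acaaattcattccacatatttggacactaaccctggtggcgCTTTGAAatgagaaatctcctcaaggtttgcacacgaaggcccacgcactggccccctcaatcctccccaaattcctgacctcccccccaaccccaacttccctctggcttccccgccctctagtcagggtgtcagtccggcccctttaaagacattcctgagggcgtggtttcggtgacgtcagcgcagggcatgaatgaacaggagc
Efna1 (chr3:89280952-89281201, minus strand): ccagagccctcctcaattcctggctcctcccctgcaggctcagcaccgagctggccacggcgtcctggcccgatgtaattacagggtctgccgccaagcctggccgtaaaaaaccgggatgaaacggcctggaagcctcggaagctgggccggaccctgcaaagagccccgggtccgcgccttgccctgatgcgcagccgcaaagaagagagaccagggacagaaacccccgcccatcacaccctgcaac
Ephb6 (chr6:41605261-41605510, plus strand): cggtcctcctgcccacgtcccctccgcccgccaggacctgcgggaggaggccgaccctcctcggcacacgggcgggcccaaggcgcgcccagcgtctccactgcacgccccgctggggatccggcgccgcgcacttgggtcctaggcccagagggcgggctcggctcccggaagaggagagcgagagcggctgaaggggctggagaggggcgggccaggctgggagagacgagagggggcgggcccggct
The Epha2 stretch held 1 match, beginning at position -209 from the start, and the other 2 stretches held none of these spellings. Of the 49 genes, 42 had such a stretch in the table, and 2 of the 42, Epha2 and Efna4, held a match. These are 2 of the 52 stretches of guidance genes (3.85%), against 14.8% of all stretches of this length in the table. The spellings are rich in A and T, and the stretches were not matched for base content. Some genes also have more than 1 stretch, so the shares do not show a shortage of the motif in guidance genes. A match is a run of letters and was not tested as a binding site.

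None of 6 ephrin genes passed. Efna1, the lipid-anchored ligand of A-class receptors including Epha2, had gene values of 7.74, 8.25 and 7.998 in K14ΔNLef1 samples, against 9.13, 8.66 and 8.97 in wild type samples. All transgenic samples lay below all wild type samples, with means of 7.998 ± 0.256 and 8.92 ± 0.24 (SD, n = 3 each). The difference was -0.92 (SE 0.21), the second lowest of the guidance genes after Epha2, and its limma adjusted p was 0.105. Efna1 kept a difference of -1.05 to -0.80 with each array left out, with adjusted p from 0.0964 to 0.382, and it was -0.58 with the median of its probe sets (limma adjusted p of 0.409). Its 10 probe sets were all lower in K14ΔNLef1.

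Efna4, another A-class ligand, did not share the pattern: it had 8.71, 7.54 and 7.65 in K14ΔNLef1 samples, against 7.73, 7.90 and 7.97 in wild type samples. Here K14ΔNLef1 replicate 1 was above, and the other transgenic samples below, every wild type sample. Efnb2, a transmembrane ligand of B-class receptors, had 9.15, 10.09 and 10.06 in K14ΔNLef1 samples, against 10.16, 10.30 and 9.89 in wild type samples. Its difference of -0.35 (limma adjusted p of 0.692) came from replicate 1, and without that array it was -0.04. Efnb1 and Efnb3, of the same class, differed by -0.18 and -0.27, with overlapping genotypes. Efna2 was read by 2 probe sets and spread from 5.61 to 7.35 among the K14ΔNLef1 samples, against 6.16 to 6.36 among wild type samples.

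**Figure D2:**
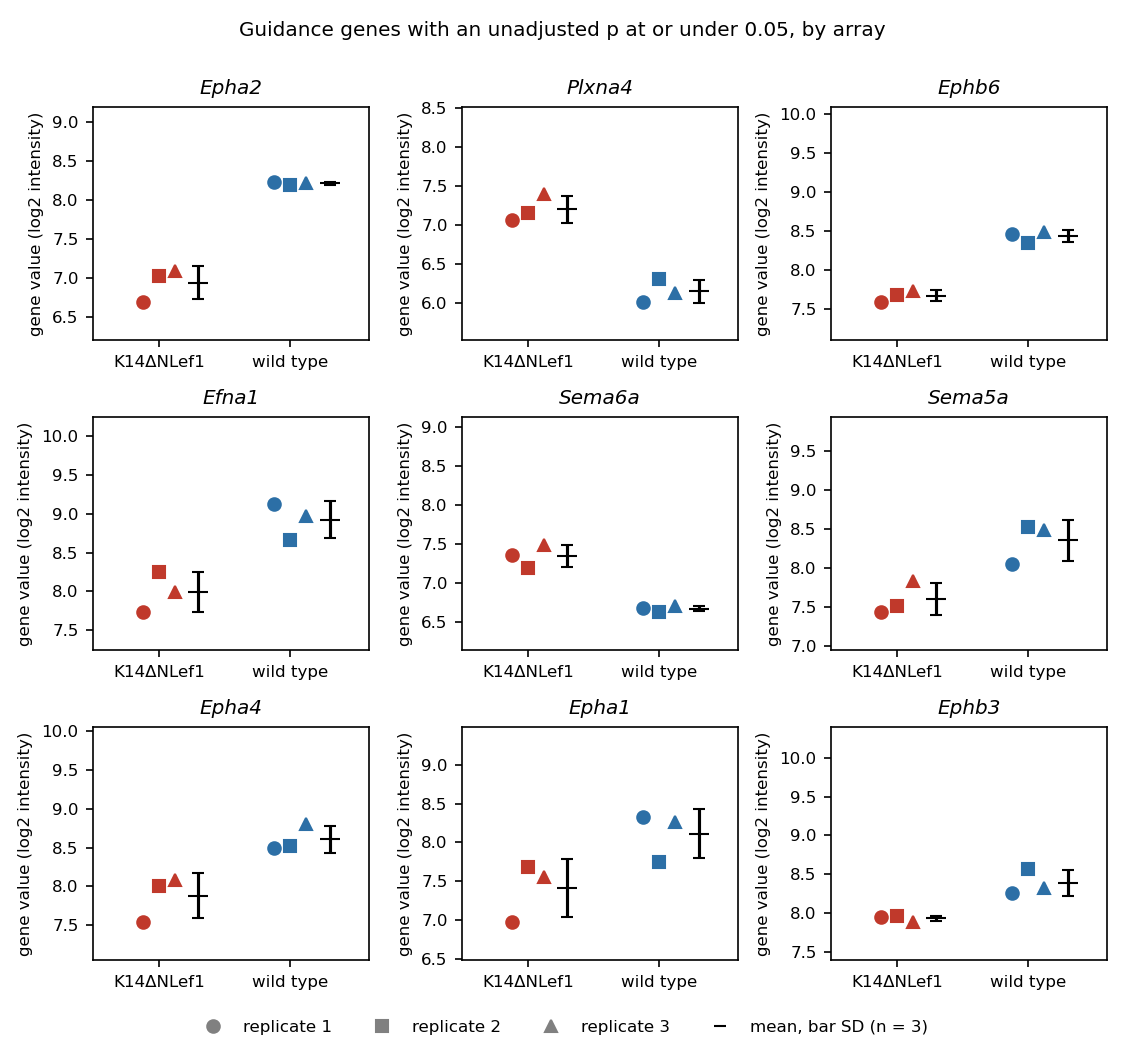
Gene values (log2 intensity) of the 9 guidance genes with an unadjusted p at or under 0.05, in order of p, with K14ΔNLef1 arrays in red, wild type arrays in blue and a bar for the mean and SD of 3 arrays. Every vertical axis spans 3 log2 units and none starts at 0. In all 9 genes the genotypes do not overlap, higher in K14ΔNLef1 for Plxna4 and Sema6a and lower for the other 7. The genes were picked by p on these same values, so the separation is no separate evidence.

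Of 6 plexin genes, Plxna4 rose and 5 did not pass. Plxna4, a receptor known from sensory and sympathetic axons where it carries signals of class 3 and class 6 semaphorins, had gene values of 7.06, 7.15 and 7.40 in K14ΔNLef1 samples, against 6.02, 6.31 and 6.12 in wild type samples. The lowest transgenic sample lay above the highest wild type sample. The means were 7.20 ± 0.17 and 6.15 ± 0.15 (SD, n = 3 each), a difference of 1.05 (SE 0.18), or 2.08-fold (limma adjusted p of 0.0379). With 1 array left out in turn the difference stayed between 0.96 and 1.14. It passed in 1 of those 6 fits, without K14ΔNLef1 replicate 1 (adjusted p of 0.0241). Without wild type replicate 1, 2 or 3 the adjusted p was 0.199, 0.126 and 0.198, and without K14ΔNLef1 replicate 2 or 3 it was 0.106 and 0.1. It did not pass with the median of its probe sets (0.0773) or with the brighter probe sets only (0.80, adjusted p of 0.0911).

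The 4 A-class plexins did not move together. Plxna2, a semaphorin receptor of the same class, had 6.98, 7.56 and 7.51 in K14ΔNLef1 samples, against 8.04, 7.57 and 7.71 in wild type samples, with a difference of -0.42 (SE 0.23, limma adjusted p of 0.535). K14ΔNLef1 replicate 1 was well below the rest, and wild type replicate 2 lay just above K14ΔNLef1 replicate 2. Plxna1, also of this class, differed by 0.21 with no overlap and Plxna3 by -0.19 with overlap. Plxnd1, a receptor known from vessels, differed by 0.16 with no overlap.

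Plxnc1, the receptor of Sema7a, was high in 1 sample: it had 5.44, 6.60 and 5.60 in K14ΔNLef1 samples, against 5.86, 5.37 and 5.58 in wild type samples. Only K14ΔNLef1 replicate 2 lay above the wild type range among these 6 arrays, and the difference of 0.27 was -0.09 without it. The lists of T cell and Langerhans cell markers were highest on the same array. The 9 T cell markers averaged 7.61, 8.92 and 8.35 in K14ΔNLef1 samples, against 7.97, 7.37 and 7.54 in wild type samples, and the 9 Langerhans cell markers averaged 7.31, 8.74 and 8.12 against 7.78, 7.11 and 7.22. None of these 18 markers passed, and their part in the Plxnc1 values was not tested. Nrp1, the co-receptor of A-class plexins, differed by 0.09 (limma adjusted p of 0.891), with overlap and with a sign that changed between fits.

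None of 11 semaphorin genes passed, and the largest differences lay in opposite directions. Sema6a, a transmembrane ligand that binds Plxna4 and Plxna2, had gene values of 7.35, 7.19 and 7.48 in K14ΔNLef1 samples, against 6.67, 6.63 and 6.70 in wild type samples. The wild type samples differed little (SD 0.04, n = 3), all transgenic samples lay above them, and the difference of 0.67 (SE 0.17) had a limma adjusted p of 0.138. With the brighter probe sets only it was 0.41 (limma adjusted p of 0.482). Sema5a, a transmembrane semaphorin with thrombospondin repeats, had 7.44, 7.52 and 7.83 in K14ΔNLef1 samples, against 8.05, 8.52 and 8.49 in wild type samples. Its genotypes did not overlap either, and its difference was -0.76 (SE 0.21, limma adjusted p of 0.181). Its close relative Sema5b differed by -0.07 (adjusted p of 0.912).

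The other semaphorins had differences from -0.26 for Sema4b to 0.24 for Sema4f, all with overlapping genotypes. Sema4d, which binds plexins and is known from T cells, had 7.20, 7.57 and 7.79 in K14ΔNLef1 samples, against 7.41, 7.30 and 7.39 in wild type samples. Replicates 2 and 3 of K14ΔNLef1 lay above the wild type range and replicate 1 below it. The T cell list was also above its wild type range in replicates 2 and 3, and its part in the Sema4d values was not tested. Sema7a, the ligand of Plxnc1, differed by 0.01 (limma adjusted p of 0.990).

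The Slit, Robo and netrin families showed no gene that passed and none without overlap. Slit1, a ligand of Robos, differed by 0.14 and Robo3, a receptor known from commissural axons, by 0.13, and both changed sign in some fits. Robo1, a Slit receptor, had 8.82, 9.39 and 9.56 in K14ΔNLef1 samples, against 9.52, 9.35 and 9.45 in wild type samples. Its difference of -0.19 (SE 0.22) rested on K14ΔNLef1 replicate 1 and was 0.03 without it. Robo4, the endothelial Robo, differed by 0.08. Endothelial markers gave no call either: the 10 measured averaged 6.53, 6.20 and 6.39 in K14ΔNLef1 samples, against 6.20, 6.29 and 6.20 in wild type samples.

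Of the netrins, the basement membrane gene Ntn4 differed by -0.02, Ntn1 by 0.02 and Ntn3 by 0.09, and the sign of Ntn4 and Ntn3 changed with the scaling or the arrays used. Ntn1 had 7.66, 6.87 and 6.73 in K14ΔNLef1 samples, against 7.16, 6.82 and 7.23 in wild type samples, so its extremes were both transgenic. Neo1, neogenin, the receptor of netrins and repulsive guidance molecules, had 9.12, 9.58 and 9.70 in K14ΔNLef1 samples, against 9.19, 9.05 and 9.04 in wild type samples. Replicates 2 and 3 lay above all wild type samples and replicate 1 within their range. The difference was 0.37 (SE 0.20, limma adjusted p of 0.547), and 0.55 without replicate 1 (adjusted p of 0.118). Unc5b and Unc5c, netrin receptors, and Dcc, the netrin receptor of commissural axons, differed by 0.13, 0.19 and 0.07. Of the genes that share only the prefix, Unc50 differed by -0.38 with no overlap and Unc5cl by -0.15.

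Probe sets showed how evenly a gene's difference was spread among them, and their positions along the transcript were not used. In Epha2 all 16 probe sets were lower in K14ΔNLef1, from -2.96 to -0.02 with a median of -1.37, and 11 of the 16 had genotypes that did not overlap. All 13 probe sets of Epha1, all 18 of Epha4 and all 10 of Efna1 were lower too, as were 17 of 19 in Ephb6, 14 of 17 in Ephb3 and 28 of 29 in Sema5a. Over the 7 genes that were lower at an unadjusted p at or under 0.05 this makes 116 of 122. These 7 genes, like Plxna4 and Sema6a, were picked by the mean of the same probe sets. The shared direction of their probe sets therefore follows largely from that choice and is no separate evidence. Probe sets of 1 gene share its RNA and array and are not replicates. In Plxna4, 29 of 30 probe sets were higher, from -0.15 to 2.08 with a median of 1.16, and 16 had no overlap. Sema6a had 17 of 19 higher. For single probe sets over all 109751, 9.46% were lower and 5.11% higher without overlap.

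Taken 1 by 1, none of the 794 probe sets of the guidance genes passed, where 0.190% of all probe sets did (limma, adjusted p at or under 0.05). At an unadjusted p at or under 0.05 the numbers were 11 in Epha2 and 16 in Plxna4, where 8.13% of all probe sets reached it. The smallest adjusted p was 0.0575, for Epha2 probe set 5508428, with 6.74, 7.06 and 7.31 in K14ΔNLef1 samples, against 10.41, 9.13 and 10.46 in wild type samples. This probe set was the furthest apart in the gene, at -2.96, while probe set 5508636 of Epha2 differed by -0.05. A test for unequal change between the probe sets of a gene (diffSplice) called Ephb6 and Neo1 (adjusted p of 0.0192 and 0.0417) among 47 guidance genes with at least 3 probe sets, or 4.26%, against 1.30% of all genes tested. On simulated data this test also called unchanged genes when probe sets differed in their spread. With a spread of its own for each probe set, neither was called (adjusted p of 0.9998 each), nor any other guidance gene, where 0.0204% of all genes tested were, so unequal change was not settled for any guidance gene.

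**Figure D3:**
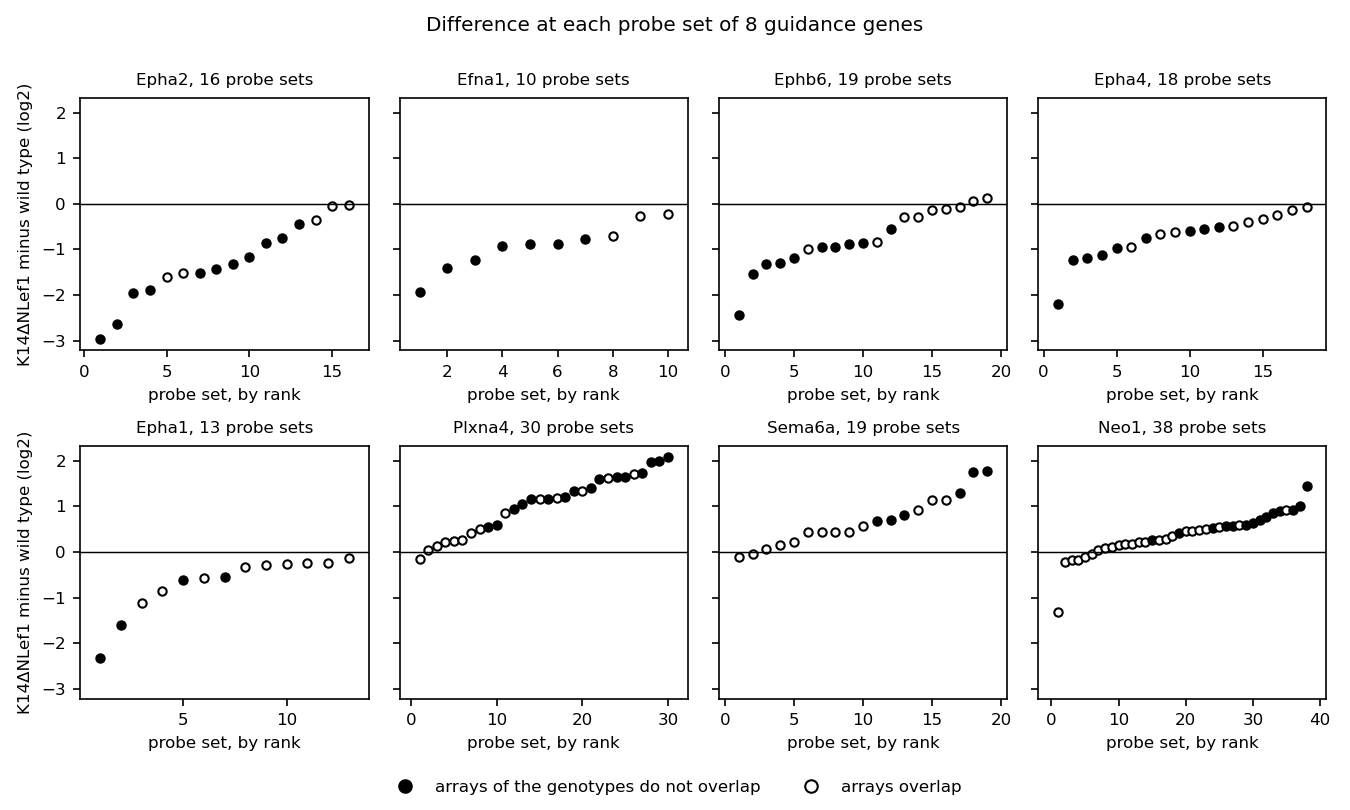
Difference between K14ΔNLef1 and wild type (log2) at each probe set of 8 guidance genes, ranked within the gene from lowest to highest, with filled points where the 3 arrays of each genotype do not overlap. All probe sets of Epha2, Efna1, Epha4 and Epha1 lie below 0, and 29 of 30 of Plxna4 lie above it.

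The guidance genes varied more among the transgenic samples than among the wild type samples. The median SD was 0.234 in K14ΔNLef1 and 0.131 in wild type (n = 3 each), and the SD was larger in K14ΔNLef1 for 39 of 49 genes. The SDs were not compared over all genes, so this is not shown to be particular to the guidance genes. How much of the larger spread came with 1 array was not measured. K14ΔNLef1 replicate 1 held the highest or the lowest value of the 6 arrays in 35 of 49 guidance genes (71.4%), and in 64.2% of all genes. Its deviation followed the level of the gene. Of the 19 guidance genes at or above the median gene value of all genes, 16 were below the wild type mean on this array, with a median of -0.62, and of the 30 below that level 23 were above it, with a median of 0.33. All genes showed the same on that array, with medians of -0.55 and 0.14. On K14ΔNLef1 replicates 2 and 3 the medians of the 19 were -0.21 and -0.18 and those of the 30 were -0.03 and 0.01. Over all genes the medians on these 2 arrays were -0.11 and 0.04 at or above that level and -0.01 and 0.02 below it.

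The 7 genes that were lower at an unadjusted p at or under 0.05 all lay in the upper of these levels. Without replicate 1 their differences were -1.16 for Epha2, -0.80 for Efna1, -0.72 for Ephb6, -0.68 for Sema5a, -0.56 for Epha4, -0.49 for Epha1 and -0.46 for Ephb3. Plxna4 at 1.12 and Sema6a at 0.67 kept their size. The remaining 40 guidance genes had differences from -0.42 to 0.37, with 26 above and 14 below 0, and adjusted p of 0.535 or more.

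**Figure D4:**
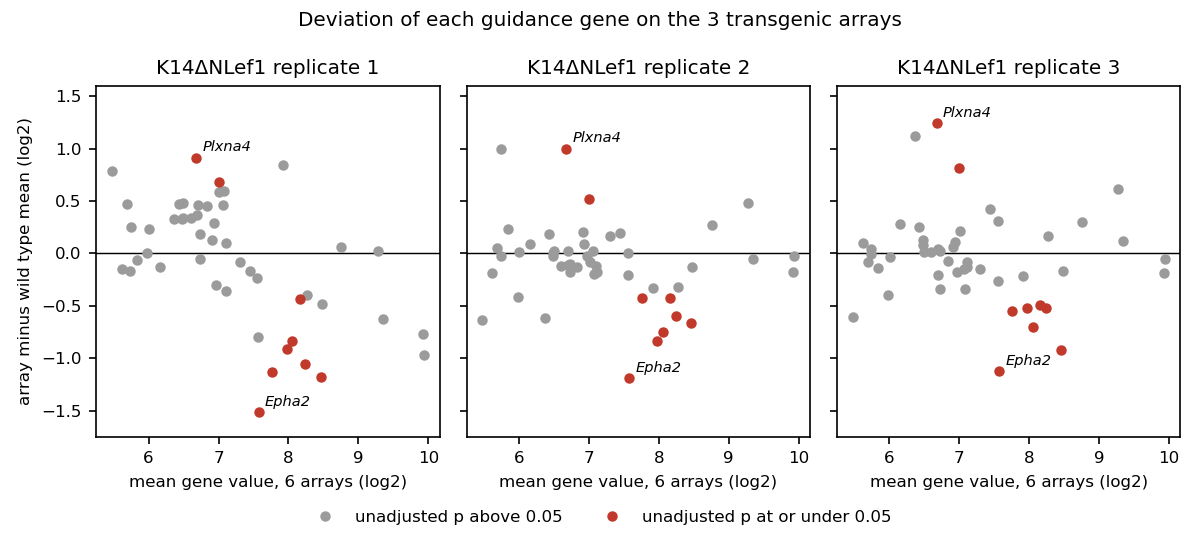
Deviation of each guidance gene from its wild type mean (log2) on the 3 K14ΔNLef1 arrays, against its mean gene value over all 6 arrays. On replicate 1 the points slope down from positive at low values to negative at high values, and on each of the 3 arrays Epha2 has the lowest and Plxna4 the highest deviation. Red points are the 9 genes with an unadjusted p at or under 0.05.

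Genes that act with these receptors were read from 3 lists drawn up from general knowledge: effectors of semaphorins and plexins, effectors of Ephs and ephrins, and effectors and other partners of Slits, Robos and netrins. Of the 84 measured, none passed (limma, adjusted p at or under 0.05), and 9 had an unadjusted p at or under 0.05, 3 higher and 6 lower, where 11.8% of all genes reached it (4.21% higher and 7.58% lower). Their median difference was -0.10, against -0.054 over all genes. Fits with other choices called from 0 to 12 of them.

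Among the 26 semaphorin and plexin effectors the smallest p values belonged to Mst1r and Met, receptor kinases that can pair with plexins. Met, the receptor of hepatocyte growth factor, had 7.74, 8.48 and 8.73 in K14ΔNLef1 samples, against 9.31, 9.07 and 9.30 in wild type samples, a difference of -0.91 (SE 0.27, limma adjusted p of 0.209). Mst1r differed by -0.64 (adjusted p of 0.190), also with no overlap. Among the 32 Eph and ephrin effectors, the Rac exchange factor Tiam1 had 8.19, 8.84 and 9.19 in K14ΔNLef1 samples, against 9.68, 9.69 and 9.66 in wild type samples. All transgenic samples were lower, and its difference was -0.94 (SE 0.26, limma adjusted p of 0.185). The Src-family kinase Fyn differed by 1.12 (limma adjusted p of 0.286), with 6.02, 7.29 and 7.02 in K14ΔNLef1 samples, against 6.23, 5.19 and 5.53 in wild type samples. Fyn is also used by T cells, and, like the T cell list, it was above its wild type range in K14ΔNLef1 replicates 2 and 3 and within it in replicate 1. The part of such cells in the Fyn values was not tested. With the brighter probe sets only, Fyn differed by 0.46 (limma adjusted p of 0.665).

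Among the 26 partners of Slits, Robos and netrins, the smallest p values belonged to Evl and Enah, actin regulators of the leading edge of cells. Enah had 7.88, 8.82 and 8.79 in K14ΔNLef1 samples, against 7.47, 7.86 and 7.27 in wild type samples, a difference of 0.96 (SE 0.29, limma adjusted p of 0.229). The lowest transgenic sample was barely above the highest wild type sample, and without K14ΔNLef1 replicate 1 Enah passed (1.27, adjusted p of 0.0326). Evl differed by 0.73 (SE 0.20, limma adjusted p of 0.171), with 8.60, 8.88 and 8.82 in K14ΔNLef1 samples, against 8.25, 7.76 and 8.10 in wild type samples.

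Markers of nerve cells were read beside the plexin result, since Plxna4 is known from neurons. The 10 neuronal markers averaged 6.53, 6.40 and 6.41 in K14ΔNLef1 samples, against 6.66, 6.50 and 6.48 in wild type samples, and none passed. The 9 Schwann cell markers averaged 7.15, 7.39 and 7.49 in K14ΔNLef1 samples, against 7.49, 7.27 and 7.52 in wild type samples, and none passed either. Of the 10 neuronal markers 6 had a difference above 0 and 4 below, with a median of 0.08. The furthest from 0 were Syt1 at -0.99 (limma adjusted p of 0.0660) and Nefl at -0.93 (limma adjusted p of 0.318), and the highest was Tubb3 at 0.45. The 8 melanocyte markers averaged 6.58, 6.91 and 6.72 in K14ΔNLef1 samples, against 6.36, 6.52 and 6.64 in wild type samples, the 11 fibroblast markers 6.60, 6.52 and 6.62 against 6.41, 6.38 and 6.52, and the 8 macrophage markers 6.23, 6.24 and 5.95 against 6.14, 6.01 and 6.08. Melanocyte markers had 6 above 0 and 2 below, with a median of 0.22. Tyr, Tyrp1 and Kit (0.60, 0.53 and 0.42) had an unadjusted limma p at or under 0.05 and no overlap. Over all genes 4.21% were higher at that p and 6.91% higher without overlap. Fibroblast markers had 9 above 0 and 2 below, from -1.29 for Lum to 1.02 for Fbln1, with a median of 0.14. Macrophage markers had 7 above 0 and 1 below, with a median of 0.12. No member of these lists passed, and their part in the Plxna4 and Sema6a values was not tested.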

How the data were processed

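RNA from the 6 samples was amplified and hybridised to mouse exon arrays, per the labels' protocols. The deposited table holds 1 linear intensity per probe set and array, made by the authors with Affymetrix Power Tools and RMA, and mm9 is the build named, per the submitters' processing notes, which name no version or filter. Each deposited intensity was converted to log2. Of 114330 probe sets, 109751 had 1 gene symbol in the platform annotation, updated through the GRCm38.p6 gene table. Of these, 794 belong to the 49 genes. Another 14 list a gene of these families among several symbols and were left out.

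Gene values were fitted with limma 3.58.1 in R 4.3.3 (lmFit, eBayes, two-sided, Benjamini-Hochberg over 11280 genes, threshold 0.05), with no filter and no pairing. The p-values set each difference against the spread between these samples, which eBayes draws toward that of all genes. The fits were tested on simulated data. Members, lists and rules were chosen with earlier results of these data known. Named are members with a p at or under 0.05, the 2 largest differences in each family and, per effector list, up to 4 genes that passed or the 2 with the smallest p. Other members were named after their values were seen. Figures were drawn with Python 3.11.15 and matplotlib 3.10.9.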

Additional observations from a re-analysis of the deposited data

How the results depend on the processing

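The number of guidance genes called was 2, and it was 0 with the median of each gene's probe sets, 1 with the brighter probe sets only, 9 with array weights (4 higher, 5 lower) and 0 to 2 with 1 array left out. The replicate block, by the numbers in the titles, gave 0 guidance genes, 75 genes in all and 0 guidance genes with unequal change. For samples with the same number, the deviations from the genotype means had correlations of -0.163, -0.172 and 0.0358. With 3 samples per genotype these deviations are tied to one another, so the correlations cannot show whether samples were paired. Blocks by adjacent sample numbers in the descriptions gave 0 guidance genes and 1 with unequal change. The correlations of these adjacent samples were 0.199, -0.0748 and -0.00675, under the same limit. Over all genes, 131 were called (37 higher, 94 lower), 236 with the arrays at the same median (103 and 133), 201 after quantile normalization (89 and 112), 1296 with array weights (598 and 698), 238 without K14ΔNLef1 replicate 1 and with the others quantile normalized, and 28 to 239 with 1 array left out.

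The median difference of the guidance genes was -0.017 with the median of probe sets, -0.018 with brighter probe sets, 0.144 at the same median, 0.142 after quantile normalization, -0.054 with array weights, -0.071 without K14ΔNLef1 replicate 1 and with the others quantile normalized, and -0.039 to 0.081 with 1 array left out. The median of all genes moved by about as much, to 0.055 and 0.056 under the scalings. Effector genes called were 0, and 12 with array weights, 1 without K14ΔNLef1 replicate 1 and with the others quantile normalized, and 0 to 1 with 1 array left out. Probe sets called were 0, and 2 under both scalings, 1 without K14ΔNLef1 replicate 1 and with the others quantile normalized, and 0 to 1 with 1 array left out. Guidance genes with unequal change were 2, and 0 to 3 with 1 array left out and 0 with a spread of its own for each probe set, a fit chosen after seeing the data.

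Signs changed in many genes far from the threshold. With 1 array left out, Plxnc1, Efna2, Efna4, Ntn1, Robo4 and Dcc changed sign in at least 1 fit. The same held for Epha3, Epha6, Epha7, Epha8, Ephb4, Sema4g, Sema6b, Sema6c, Sema7a and Unc5cl. Counts of genes above or below 0 include such genes and are not firm. With 1 array left out, Robo1 ranged from -0.337 to 0.033 (without K14ΔNLef1 replicate 1), and it was 0.071 without that array and with the others quantile normalized, and Slit1 was -0.001 with array weights. Robo3 was -0.038 with brighter probe sets and -0.019 without K14ΔNLef1 replicate 1 and with the others quantile normalized. Nrp1 was -0.108 with the median of probe sets, -0.055 with brighter ones, -0.021 with array weights, -0.023 (without wild type replicate 2) to 0.157 with 1 array left out and -0.048 without K14ΔNLef1 replicate 1 and with the others quantile normalized. Ntn3 was -0.109 with array weights, -0.099 (without K14ΔNLef1 replicate 1) to 0.193 with 1 array left out, and -0.130 without that array and with the others quantile normalized. Ntn4 was 0.085 at the same median, 0.093 after quantile normalization, 0.124 with array weights, and -0.118 to 0.056 with 1 array left out, above 0 without wild type replicate 3 and without K14ΔNLef1 replicate 1 or 3. The cause of these changes was not tested. Epha2 and Plxna4 kept their direction in all 16 alternatives and passed in 9 and 7 of them.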
